A study of Mus musculus with 4 samples.

Results

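The snoRNA host genes described here are Gas5, Snhg1, Snhg3, Snhg5, Snhg6, Snhg8 and Snhg12, 7 mouse genes whose polyadenylated RNAs code for no known protein and whose introns carry small nucleolar RNAs (snoRNAs). They were chosen by name, with earlier results of these data known. Found through their Entrez gene IDs, they are 7 of the 27179 genes in the deposited table. All 7 were abundant enough to be tested, among 12107 tested genes. The study sequenced RNA of leukemia stem cells (LSCs) from a mouse model of acute myeloid leukemia (AML), in 2 B7-H4-null and 2 wild-type samples. All samples came from bone marrow on the C57BL/6 strain and were sorted as YFP+/Mac-1+/c-Kit+ cells, that is, cells with a yellow fluorescent protein, the myeloid integrin Mac-1 and the receptor c-Kit. B7-H4 is a ligand of the B7 family that restrains T cells. How the leukemia was started, the age of the animals and whether each sample is 1 animal are not stated in the sources at hand.

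The introns of a snoRNA host gene are cut out of the transcript and trimmed to snoRNAs, which guide chemical marking of ribosomal RNA. Box C/D snoRNAs guide 2′-O-methylation and box H/ACA snoRNAs guide pseudouridylation, and both work in the nucleolus as particles with proteins. The spliced exons that remain reach the cytoplasm. There many host RNAs are read by ribosomes and then destroyed by nonsense-mediated decay (NMD), the pathway that removes RNAs with an early stop codon, so that their level can follow translation as well as transcription. Many host genes also start in a C followed by a run of pyrimidines, the 5′ TOP element shared with mRNAs of ribosomal proteins. Gas5 owes its name, growth arrest-specific 5, to mouse cells in which its RNA builds up when growth stops.

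The start regions of the host genes are shown because that run lies at the start site. Each line spans positions −60 to +30 of a start site annotated by RefSeq on GRCm38.p6, 5′ to 3′ on the gene's strand. Capitals mark a TATA between −40 and −20 and the longest C with at least 4 pyrimidines after it that begins between −10 and +10. Of 2 annotated Gas5 start sites the downstream one is shown, and the upstream one has neither the TATA nor the run.
Gas5 (chr1:161035106-161035195, + strand): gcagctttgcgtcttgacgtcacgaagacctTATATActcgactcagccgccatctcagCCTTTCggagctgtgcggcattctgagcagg
Snhg12 (chr4:132308618-132308707, + strand): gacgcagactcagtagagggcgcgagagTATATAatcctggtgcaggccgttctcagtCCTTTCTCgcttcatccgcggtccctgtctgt
Snhg8 (chr3:123508307-123508396, − strand): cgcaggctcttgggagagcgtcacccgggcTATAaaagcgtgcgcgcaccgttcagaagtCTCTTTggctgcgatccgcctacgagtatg
Snhg5 (chr9:88522868-88522957, − strand): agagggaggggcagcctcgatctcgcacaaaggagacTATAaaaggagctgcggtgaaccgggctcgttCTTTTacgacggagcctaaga
Snhg3 (chr4:132353657-132353746, − strand): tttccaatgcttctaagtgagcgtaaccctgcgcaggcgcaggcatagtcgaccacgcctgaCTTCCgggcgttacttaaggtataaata
Snhg1 (chr19:8723427-8723516, + strand): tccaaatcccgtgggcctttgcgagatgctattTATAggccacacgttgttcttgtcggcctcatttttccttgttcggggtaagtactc

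TATA, searched on the gene's strand, was present between −40 and −20 in 5 of the 7 start regions listed for 6 of the host genes, against 5.81% of 32851 mouse start regions of the same length. It begins at −29 in Gas5, −32 in Snhg12, −30 in Snhg8, −23 in Snhg5 and −27 in Snhg1. The pyrimidine run, searched on the gene's strand, was present in 5 of the 7 start regions, against 29.7% of all. It is 8 bases long in Snhg12, 6 in Gas5 and Snhg8, and 5 in Snhg3 and Snhg5. The run begins at −2 in Snhg12, −1 in Gas5 and +1 in Snhg8. In Snhg3 it begins at +3, and in Snhg5 at +10, the edge of the window, past the annotated start site. CACGTG, the motif bound by MYC, was in none of the 7 start regions over their whole 300 bases, against 7.15% of all, and TGACGTCA, the cyclic AMP response element, was in 1, that of Gas5, against 1.79%. Both of these are palindromes, so the search covers both strands. These matches describe letters in a window and not binding, and the windows were set after the sequences had been seen. For Snhg6 no start region is shown.

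The hosts differ in what they carry. RefSeq places 26 snoRNAs inside the 7 genes. Gas5 and Snhg1, known as hosts of box C/D snoRNAs, hold 8 each, Snhg5 holds 2 and Snhg6 holds 1, the C/D snoRNA Snord87. Snhg3 carries the H/ACA snoRNAs Snora73a and Snora73b, known as U17, and Snhg8 carries the H/ACA snoRNA Snora24. Snhg12 carries 4, the H/ACA snoRNAs Snora16a, Snora44 and Snora61 and the C/D snoRNA Snord99. Shown here, from GENCODE M21 on GRCm38, are 3 C/D snoRNAs with the C box TGATGA and the D box CTGA in capitals, and 1 H/ACA snoRNA with its ACA box in capitals.
Snord47 in Gas5 (chr1:161038082-161038158, + strand): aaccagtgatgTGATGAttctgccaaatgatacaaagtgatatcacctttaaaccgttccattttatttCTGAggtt
Snord99 in Snhg12 (chr4:132310691-132310764, + strand): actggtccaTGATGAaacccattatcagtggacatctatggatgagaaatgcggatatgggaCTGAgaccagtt
Snord87 in Snhg6 (chr1:9942463-9942549, − strand): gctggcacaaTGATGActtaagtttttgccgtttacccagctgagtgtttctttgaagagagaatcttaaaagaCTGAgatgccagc
Snora24 in Snhg8 (chr3:123507937-123508066, − strand): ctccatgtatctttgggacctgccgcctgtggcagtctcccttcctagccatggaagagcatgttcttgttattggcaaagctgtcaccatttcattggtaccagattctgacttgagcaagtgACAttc

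The libraries had totals of 9419425 to 10814448 reads, recovered from the steps between low RPKM values (reads scaled to the length of the gene model and to the library's total). Between 11814 and 11871 genes reached 1 RPKM in a library. Vtcn1, the gene of B7-H4, had 2 reads over both B7-H4-null libraries and 0 over both wild-type libraries, too few to check the genotype labels. The 4 sort markers were present in every library. Lower in both B7-H4-null libraries than in both wild-type libraries were 3 of them, Itgam, Itgb2 and Ptprc, beside 28.0% of all tested genes. It was 2 of them after median-ratio scaling, beside 22.3%, or after quantile normalization, beside 25.5%. Kit stood at 11.02 and 9.37 RPKM in B7-H4-null LSCs, against 24.0 and 7.19 RPKM in wild-type LSCs. Itgb2, the β chain of Mac-1, stood at 123 and 146 RPKM in B7-H4-null LSCs, against 213 and 213 RPKM in wild-type LSCs, a log2 difference of −0.66 ± 0.253 (SE, adjusted p = 0.371, limma). Itgam, the α chain of Mac-1, stood at 82.9 and 59.9 RPKM in B7-H4-null LSCs, against 114 and 86.9 RPKM in wild-type LSCs. In bulk RNA, fewer cells of a type and less RNA per cell cannot be told apart.

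All 7 host genes were among the more abundant RNAs of these cells, each with a mean above that of at least 93.7% of tested genes. Snhg1 was the highest of the 7 in each of the 4 libraries. In B7-H4-null LSCs the order of the mean levels was Snhg1 (357 ± 65.0 RPKM), Snhg5 (254 ± 147), Gas5 (239 ± 80.9), Snhg12 (182 ± 92.1), Snhg8 (165 ± 78.9), Snhg6 (149 ± 23.6) and Snhg3 (131 ± 2.33) (SD, n = 2). In wild-type LSCs it was Snhg1 (163 ± 61.1 RPKM), Snhg6 (109 ± 12.5), Snhg5 (106 ± 54.8), Gas5 (96.1 ± 35.0), Snhg3 (94.8 ± 22.0), Snhg8 (80.4 ± 17.8) and Snhg12 (64.5 ± 23.1) (SD, n = 2). Of the 6 pairs of neighbours in each order, 0 had separate values in B7-H4-null and 1, Snhg1 above Snhg6, in wild type. Within each library, Gas5 lay above Snhg12 and Snhg12 above Snhg8 in both B7-H4-null libraries, and Snhg8 above Snhg12 in both wild-type libraries. The other neighbours below Snhg1 changed order between the libraries of a genotype. These levels depend on the authors' gene models, which the sources at hand do not describe. The length behind the RPKM values was 785 bases for Snhg8, its whole span on the genome, and 2554 bases for Gas5. Reads in introns may therefore be counted in Snhg8 and Gas5. It was 476 bases for Snhg1, 437 for Snhg3 and 407 for Snhg6, well below their spans of 2840, 1754 and 2094 bases. For Snhg5 a length of 2022 bases was recovered, more than its span of 1846 bases. The steps between values leave a common factor of length and reads open, so the length for Snhg5 is not settled.

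**Figure D1:**
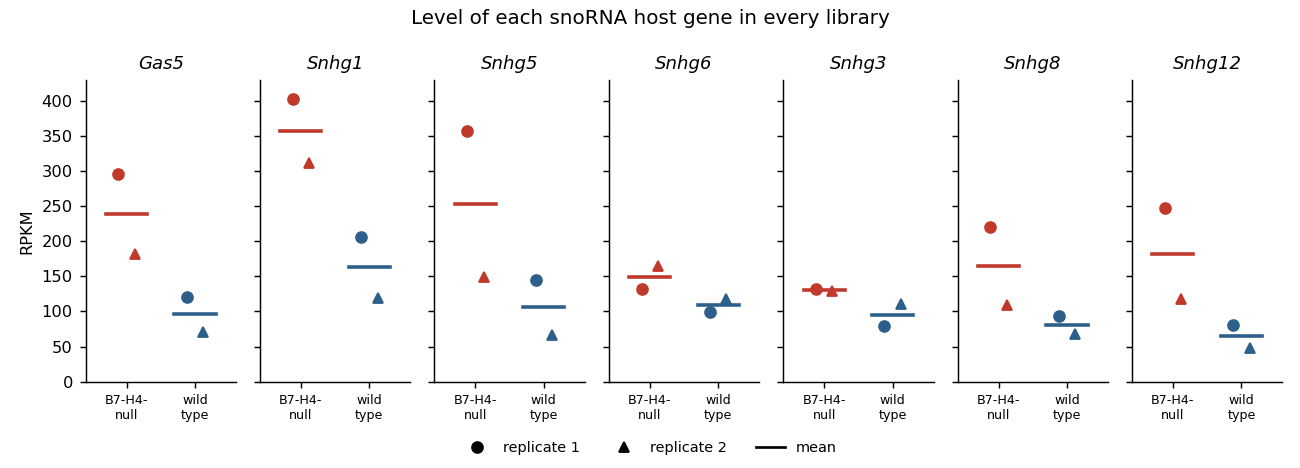
RPKM (linear axis from 0) of each of the 7 host genes in every library, B7-H4-null on the left and wild type on the right of each panel, with circles for replicate 1, triangles for replicate 2 and a bar for the mean of the 2. Both B7-H4-null points lie above both wild-type points in every panel, by least for Snhg5 (150 against 145 RPKM).

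The comparison of genotypes asks which RNAs differ in LSCs that lack B7-H4. Every host gene was higher in both B7-H4-null libraries than in both wild-type libraries, by 1.37- to 2.83-fold in means, and none of the 7 passed the test. Summed over the 7 genes, the level was 1789 and 1163 RPKM in B7-H4-null LSCs, against 824 and 602 RPKM in wild-type LSCs. The test was limma on log2(RPKM + 1), adjusted by Benjamini-Hochberg over all 12107 tested genes, and it called 0 of the 7 host genes at 0.05, which does not show that their levels were alike. It called 12 genes in all, 0.0991% of those tested, 5 higher and 7 lower in B7-H4-null. At an unadjusted p under 0.05, 4 of the 7 host genes were higher (limma), against 5.05% of all tested genes, and 0 were lower, against 7.20%. After median-ratio scaling it was 5 of the 7, and over all genes 789 were higher and 648 lower in place of 612 and 872. Of all tested genes, 16.0% had both B7-H4-null values above both wild-type values and 28.0% had both below, and after median-ratio scaling these shares were 22.0% and 22.3%. The median log2 difference was 1.17 over the 7 host genes and −0.09 over all tested genes. Since the host genes were chosen with earlier results of these data known, these counts and medians are no test of the list. The labels do not tie the replicates to separate animals, and each p-value therefore reflects the spread among these 4 libraries alone, some or all of which may be technical.

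Gas5 (gene ID 14455, chromosome 1, 161034601 to 161038539 on GRCm38.p6, as for all positions of genes here) encodes an RNA also known, from human cells, to bind the glucocorticoid receptor. It stood at 296 and 182 RPKM in B7-H4-null LSCs, against 121 and 71.3 RPKM in wild-type LSCs. The lower B7-H4-null value lies 1.50-fold above the higher wild-type value. The means differed 2.49-fold, with a log2 difference of 1.31 ± 0.371 (SE, adjusted p = 0.297, limma). The reads behind these values numbered 7120 and 5014 in B7-H4-null and 3130 and 1809 in wild type, so counting error is small beside the gap between replicates.

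Snhg1 (gene ID 83673, chromosome 19, 8723487 to 8726326), the host of Snord22 and of the Snord25 to Snord31 cluster, stood at 403 and 311 RPKM in B7-H4-null LSCs, against 206 and 120 RPKM in wild-type LSCs. Here too the genotypes were apart, with the lower B7-H4-null value 1.51-fold above the higher wild-type value. The means differed 2.19-fold and the log2 difference was 1.17 ± 0.341 (SE, adjusted p = 0.307, limma), or 0.78 with wild type replicate 2 left out.

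Snhg5 (gene ID 72655, chromosome 9, 88521052 to 88522897), the host of the U50 snoRNAs, stood at 358 and 150 RPKM in B7-H4-null LSCs, against 145 and 67.1 RPKM in wild-type LSCs. The genotypes only just separate, since B7-H4-null replicate 2 was 1.03-fold above wild type replicate 1, and after quantile normalization they overlapped. The log2 difference was 1.22 ± 0.515 (SE, adjusted p = 0.409, limma), with the largest standard error of the 7. Dropping B7-H4-null replicate 1 left 0.60, dropping wild type replicate 2 left 0.67 and dropping B7-H4-null replicate 2 left 1.85.

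Snhg6 (gene ID 73824, chromosome 1, 9942025 to 9944118), the host of Snord87, stood at 132 and 165 RPKM in B7-H4-null LSCs, against 99.8 and 117 RPKM in wild-type LSCs. It was the only one of the 7 with its highest value in B7-H4-null replicate 2. Its log2 difference of 0.44 ± 0.265 (SE, adjusted p = 0.559, limma), or 1.37-fold in means, was the smallest of the 7. Without B7-H4-null replicate 2 it was 0.28.

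Among the hosts of H/ACA snoRNAs, Snhg3 (gene ID 399101, chromosome 4, 132351933 to 132353686), the host of U17, which takes part in cutting the ribosomal RNA precursor, had 132 and 129 RPKM in B7-H4-null LSCs, against 79.2 and 110.3 RPKM in wild-type LSCs. Its B7-H4-null libraries lay within 1.03-fold of each other, the closest pair of the 7 genes. The log2 difference was 0.48 ± 0.273 (SE, adjusted p = 0.544, limma), and it was 0.24 without wild type replicate 1.

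Snhg8 (gene ID 69895, chromosome 3, 123507552 to 123508336), the host of Snora24, stood at 221 and 109 RPKM in B7-H4-null LSCs, against 93.1 and 67.8 RPKM in wild-type LSCs. Much of its excess lay in B7-H4-null replicate 1, and the log2 difference of 0.96 ± 0.386 (SE, adjusted p = 0.387, limma) was 0.46 without that library and 1.46 with B7-H4-null replicate 2 left out instead.

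Snhg12 (gene ID 100039864, chromosome 4, 132308678 to 132311024), the host of both snoRNA types, lies near Snhg3. It had 248 and 117 RPKM in B7-H4-null LSCs, against 80.8 and 48.2 RPKM in wild-type LSCs, and the lower B7-H4-null value was 1.45-fold above the higher wild-type value. Its 2.83-fold difference in means and log2 difference of 1.43 ± 0.428 (SE, adjusted p = 0.313, limma) were the largest of the 7. Without B7-H4-null replicate 1 the log2 difference was 0.90.

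**Figure D2:**
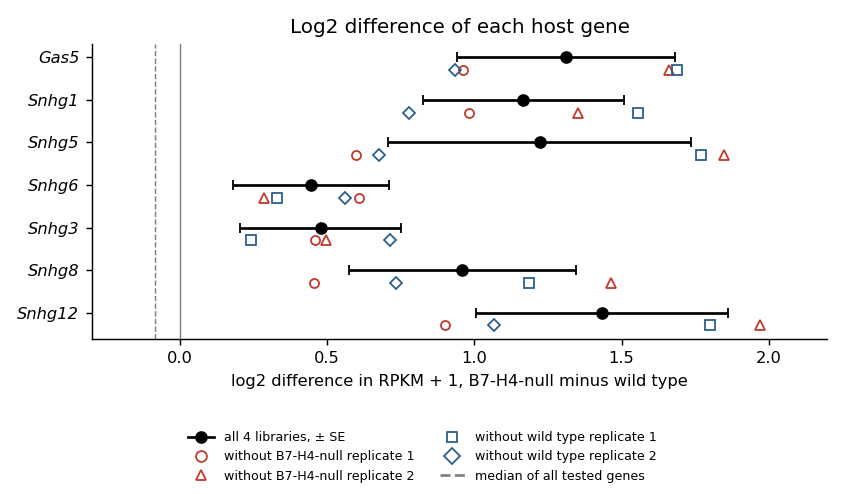
Log2 difference of each host gene on the log2(RPKM + 1) scale, B7-H4-null minus wild type, with its standard error from all 4 libraries (black) and, below it, the difference without each library in turn (open symbols). All points lie above 0 and above the median of all tested genes (dashed, −0.09), between 0.24 and 1.97.

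The values within a genotype differed widely, and in the same sense in both genotypes for most host genes. Replicate 1 was above replicate 2 in both genotypes for 5 of the 7, Gas5, Snhg1, Snhg5, Snhg8 and Snhg12, against 23.9% of all tested genes. The ratio of replicate 1 to replicate 2 was 2.39 in B7-H4-null and 2.15 in wild type for Snhg5. It was 2.11 in B7-H4-null and 1.68 in wild type for Snhg12, and 2.02 in B7-H4-null and 1.37 in wild type for Snhg8. These 5 genes are the ones with the larger genotype differences, at log2 values of 0.96 to 1.43. For Snhg6 replicate 1 was below replicate 2 in both genotypes, with ratios of 0.798 in B7-H4-null and 0.849 in wild type, as for 38.8% of all tested genes. Snhg3 had ratios of 1.03 in B7-H4-null and 0.718 in wild type. B7-H4-null replicate 1 was the highest library for 6 of the 7 and wild type replicate 2 the lowest for 5, so the median log2 difference of the 7 was 0.61 without that B7-H4-null library and 0.73 without that wild-type library. With either of them left out, 0 of the 7 had an unadjusted p under 0.05 (limma).

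**Figure D3:**
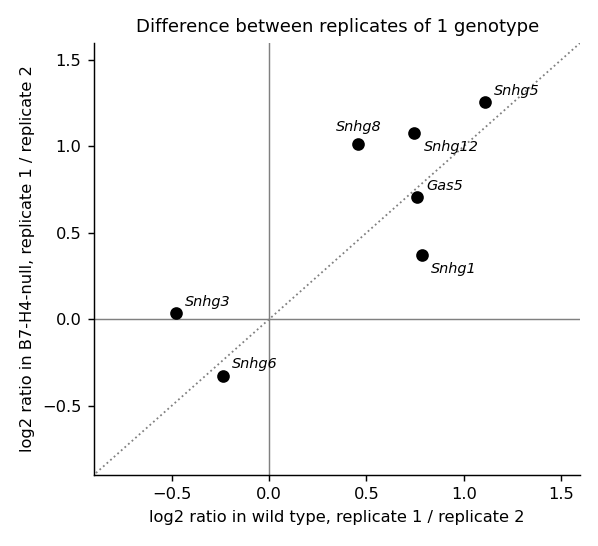
Log2 ratio of replicate 1 to replicate 2 in B7-H4-null (vertical axis) and in wild type (horizontal axis) for each host gene, with the line of equal ratios dotted. Gas5, Snhg1, Snhg5, Snhg8 and Snhg12 lie at the upper right, Snhg6 at the lower left and Snhg3 near 0 on the vertical axis.

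Rows for snoRNAs that lie inside the 7 genes gave further values for the same loci. Of the 26 snoRNAs, 10 had a row, with 5 to 287 reads per library. Higher in both B7-H4-null libraries than in both wild-type libraries were 7 of these 10, beside 16.0% of all tested genes, and 3 overlapped. The median log2 difference was 1.05, with a range over leaving out each library of 0.62 to 1.50. By limma 0 of the 10 were called and 6 were higher at an unadjusted p under 0.05, beside 5.05% of all tested genes. Snord22, in an intron of Snhg1, had 195 and 211 RPKM in B7-H4-null LSCs, against 100.1 and 50.3 RPKM in wild-type LSCs, a log2 difference of 1.50 ± 0.361 (SE, adjusted p = 0.240, limma). Snord47 in Gas5, whose sequence is shown above, had 127 and 139 RPKM in B7-H4-null LSCs, against 81.9 and 49.6 RPKM in wild-type LSCs. In both snoRNA rows B7-H4-null replicate 2 was slightly above replicate 1, whereas replicate 1 was 1.30-fold above replicate 2 for Snhg1 and 1.63-fold for Gas5.

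All 4 snoRNAs of Snhg12 had both B7-H4-null values above both wild-type values. Snord99 had 64.5 and 49.5 RPKM in B7-H4-null LSCs, against 28.2 and 19.8 RPKM in wild-type LSCs, with a log2 difference of 1.22 ± 0.289 (SE, adjusted p = 0.231, limma). For Snora16a the log2 difference was 1.45 ± 0.379, on 25 and 23 reads in B7-H4-null and 12 and 5 in wild type. Snora44 and Snora61 had log2 differences of 1.17 and 0.86. Snord87, in Snhg6, overlapped between genotypes and was the only one of the 10 with a negative log2 difference, −0.45, on 5 and 12 reads in B7-H4-null and 13 and 9 in wild type. Snora24, in Snhg8, and Snora73b, in Snhg3, overlapped as well, whereas Snora73a, in Snhg3, did not, with 28.0 and 16.7 RPKM in B7-H4-null LSCs, against 14.4 and 6.87 RPKM in wild-type LSCs. The kit selects RNA with a poly(A) tail, which mature snoRNAs lack, and reads on a snoRNA and on the unspliced transcript of its host cannot be told apart.

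The library kit does not mark strand, so genes that overlap a host on the other strand could share reads with it. Zbtb37, a zinc finger gene that overlaps Gas5 by 264 bases at the upstream annotated start of Gas5, had at most 1.09 RPKM. Mcmdc2, a relative of the MCM helicases that overlaps Snhg6 by 1582 bases, had 0.915 and 0.761 RPKM in B7-H4-null LSCs, against 0.965 and 3.55 RPKM in wild-type LSCs. Both are far below the level of their host, at 71.3 RPKM or more for Gas5 and 99.8 RPKM or more for Snhg6. Slc3a2, the heavy chain of an amino acid transporter, runs away from Snhg1 from a start 118 bases off and overlaps it nowhere. It had 67.9 and 81.0 RPKM in B7-H4-null LSCs, against 48.0 and 39.1 RPKM in wild-type LSCs, a log2 difference of 0.76 ± 0.259 (SE, adjusted p = 0.334, limma).

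Other noncoding snoRNA hosts were mixed. Of 15 further noncoding hosts, 12 were tested, with a median log2 difference of 0.59. Both B7-H4-null values were above both wild-type values in 6 and below in 1, beside 16.0% and 28.0% of all tested genes. After median-ratio scaling it was 9 and 1, beside 22.0% and 22.3%. Limma called 0 of the 12. At an unadjusted p under 0.05, 6 were higher and 1 was lower (limma), beside 5.05% and 7.2% of all tested genes. Voom called 0 in this and in each of the following lists. Zfas1, the host of the Snord12 snoRNAs, had 428 and 198 RPKM in B7-H4-null LSCs, against 139 and 106 RPKM in wild-type LSCs. Epb41l4aos stood at 75.3 and 65.8 RPKM in B7-H4-null LSCs, against 35.7 and 34.6 RPKM in wild-type LSCs, a log2 difference of 0.98 ± 0.242 (SE, adjusted p = 0.250, limma). Snhg4 and Snhg9 had log2 differences of 0.77 and 0.85. Snhg20 was lower, at 7.61 and 10.5 RPKM in B7-H4-null LSCs, against 23.5 and 20.1 RPKM in wild-type LSCs, a log2 difference of −1.19 ± 0.267 (SE, adjusted p = 0.215, limma). Snhg14 and Snhg18 were listed at 0 in every library.

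Protein-coding snoRNA hosts, mostly ribosomal protein and translation factor genes, had smaller differences. All 35 were tested, 34 had a log2 difference above 0, and 0 were called. Both B7-H4-null values were above both wild-type values in 25 and below in none, beside 16.0% and 28.0% of all tested genes. It was 33 and 0 after median-ratio scaling, beside 22.0% and 22.3%, and 18 and 2 after quantile normalization, beside 19.1% and 25.5%. At an unadjusted p under 0.05, 8 were higher (limma), beside 5.05% of all tested genes. The median of the 35 log2 differences was 0.46, with a range over leaving out each library of 0.29 to 0.54. Hspa8, a constitutive heat shock chaperone, had 476 and 239 RPKM in B7-H4-null LSCs, against 153 and 116 RPKM in wild-type LSCs. For Hsp90ab1, the constitutive HSP90 chaperone, the log2 difference was 0.91 ± 0.270, and for the translation helicase Eif4a1 it was 0.93 ± 0.299. Rps12 and Rpl3, of the small and the large ribosomal subunit, had log2 differences of 1.04 and 0.79. Ribosomal protein genes have many near-identical pseudogene copies, so their values are uncertain.

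The genes of the snoRNA particles, which hold the core C/D and H/ACA proteins and their assembly factors, had a median log2 difference of 0.35 over 20 tested genes. Both B7-H4-null values lay above both wild-type values in 6 and below in 1, beside 16.0% and 28.0% of all tested genes as deposited. It was 12 and 0 after median-ratio scaling, beside 22.0% and 22.3%, and 10 and 0 after quantile normalization, beside 19.1% and 25.5%. Limma called 0, with 1 higher at an unadjusted p under 0.05, beside 5.05% of all tested genes. Dropping B7-H4-null replicate 2 left a median of 0.01, and dropping B7-H4-null replicate 1 left one of 0.68. Nop56, a core C/D protein that is itself a snoRNA host, had 195 and 108 RPKM in B7-H4-null LSCs, against 86.3 and 35.3 RPKM in wild-type LSCs, a log2 difference of 1.37 ± 0.480 (SE, adjusted p = 0.337, limma). Dkc1, the pseudouridine synthase of the H/ACA particle, overlapped between genotypes, at 39.2 and 67.4 RPKM in B7-H4-null and 39.6 and 30.2 RPKM in wild type. The assembly factors Znhit6 and Ruvbl2 and the core H/ACA protein Nop10 had log2 differences of 0.55, 0.50 and 0.51.

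The 15 5′ TOP translation genes, of which Eef1b2, Eef2, Tpt1 and Rack1 also stand among the protein-coding hosts, had a median log2 difference of 0.33. Both B7-H4-null values were above both wild-type values in 8 and below in none, beside 16.0% and 28.0% of all tested genes. After median-ratio scaling it was 12 and 0, beside 22.0% and 22.3%, and after quantile normalization 4 and 1, beside 19.1% and 25.5%. Dropping wild type replicate 1 left a median of 0.17, dropping B7-H4-null replicate 2 one of 0.20 and dropping B7-H4-null replicate 1 one of 0.54. Limma called 0, with 2 higher at an unadjusted p under 0.05, beside 5.05% of all tested genes. Npm1, a nucleolar chaperone, had 245 and 297 RPKM in B7-H4-null LSCs, against 149 and 143 RPKM in wild-type LSCs. Hnrnpa1, Pabpc1, Eef1g and Eef1b2 had log2 differences of 0.78, 0.50, 0.51 and 0.47.

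Factors of NMD had no member with separate and higher values in B7-H4-null LSCs. Of the 20 tested, 0 had both B7-H4-null values above both wild-type values, 10 had both below, beside 16.0% and 28.0% of all tested genes. The median log2 difference was −0.17, against −0.09 for all tested genes, and −0.27 without wild type replicate 1. Limma called 0, with 2 lower at an unadjusted p under 0.05, beside 7.20% of all tested genes. Casc3, of the exon junction complex, had 13.5 and 16.0 RPKM in B7-H4-null LSCs, against 24.0 and 23.9 RPKM in wild-type LSCs. For Smg8, which restrains the NMD kinase SMG1, the log2 difference was −0.66 ± 0.259 (SE, adjusted p = 0.383, limma). Smg5 and the exonuclease Xrn1 had log2 differences of −0.42 and −0.43.

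Stress mRNAs known as NMD targets had a median log2 difference of 1.46 over 5 genes, with a range over leaving out each library of 0.64 to 2.51. None was called, and 2 were higher at an unadjusted p under 0.05 (limma), beside 5.05% of all tested genes. Atf3 had 34.3 and 17.8 RPKM in B7-H4-null LSCs, against 3.99 and 6.67 RPKM in wild-type LSCs. Atf4, which drives the integrated stress response, had 702 and 406 RPKM in B7-H4-null LSCs, against 329.5 and 207 RPKM in wild-type LSCs. Both B7-H4-null values were above both wild-type values in 2 of the 5, Atf3 and Atf4, beside 16.0% of all tested genes. After quantile normalization it was 1, beside 19.1%. Ddit3, Gadd45a and Gadd45b overlapped between genotypes. Like the 5 host genes above, these genes and Atf4 were higher in replicate 1 than in replicate 2 of each genotype, and Atf3 was not. For Ddit3 the values were 282 and 30.9 RPKM in B7-H4-null and 37.9 and 9.82 RPKM in wild type.

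**Figure D4:**
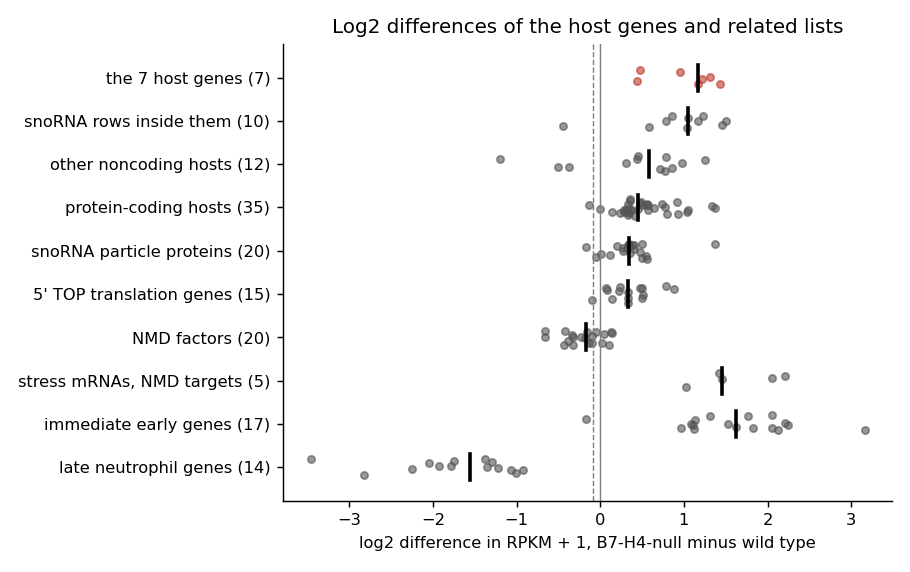
Log2 difference, B7-H4-null minus wild type, of every tested gene in 10 groups, with the number of genes in brackets and the median as a black bar. The 7 host genes (red) have a median of 1.17, other noncoding hosts 0.59, protein-coding hosts 0.46, NMD factors −0.17, immediate early genes 1.63 and late neutrophil genes −1.56, and the dashed line marks the median of all tested genes at −0.09.

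Immediate early and late neutrophil genes also differed in level between the libraries of the genotypes. The summed level of 18 immediate early genes, which are switched on fast by growth signals, by stress and by handling of cells, was 13613 and 6496 RPKM in B7-H4-null LSCs, against 2578 and 3882 RPKM in wild-type LSCs. Among the 17 tested, 16 had both B7-H4-null values above both wild-type values, beside 16.0% of all tested genes. Limma called 0, with 14 higher at an unadjusted p under 0.05, beside 5.05% of all tested genes. The median log2 difference of the 17, 1.63, ranged from 0.80 to 2.03 when each library was left out. The largest log2 difference among them was that of Ppp1r15a, which reverses the block of translation after stress, at 3.16 ± 0.520 (SE, adjusted p = 0.134, limma). Jun, Klf2 and Klf6 had log2 differences of 2.13, 2.21 and 1.83. B7-H4-null replicate 1 was the highest library for this sum as for the sum of the host genes, while the lowest was wild type replicate 1 for the immediate early genes and wild type replicate 2 for the host genes.

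Late neutrophil genes were lower in both B7-H4-null libraries than in both wild-type libraries for 14 of 14, beside 28.0% of all tested genes. It was 13 after median-ratio scaling, beside 22.3%, and 14 after quantile normalization, beside 25.5%. The median log2 difference of the 14 was −1.56. Limma called 0, with 13 lower at an unadjusted p under 0.05, beside 7.2% of all tested genes. The summed level of the 14 was 8616 and 12511 RPKM in B7-H4-null LSCs, against 31753 and 24318 RPKM in wild-type LSCs. Ltf, the granule protein lactotransferrin, had 8.91 and 39.1 RPKM in B7-H4-null LSCs, against 352 and 135 RPKM in wild-type LSCs. Cd177, Retnlg, Chil1 and Mmp9 had log2 differences of −1.78, −2.82, −2.05 and −2.25. The part of the immediate early and late neutrophil genes in the host gene values was not tested. Markers of other cell types were at or near 0, apart from Cd79b and Pdgfrb. The 6 erythroid genes with a row summed to 4.06 and 1.34 RPKM in B7-H4-null LSCs, against 1.86 and 2.69 RPKM in wild-type LSCs. The 7 T and NK cell genes summed to at most 0.711 RPKM in any library. Of the B cell genes, Pax5 was at 0 and Cd79b alone was tested, with 58.7 and 60.7 RPKM in B7-H4-null LSCs, against 35.4 and 45.5 RPKM in wild-type LSCs. The 6 stromal genes summed to 21.1 and 8.59 RPKM in B7-H4-null LSCs, against 11.4 and 12.2 RPKM in wild-type LSCs, with Pdgfrb and Col1a1 the only ones tested.

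The tested genes whose values across the 4 libraries were closest to the mean pattern of the 7 host genes were sought among 4109 named genes with a mean of at least 20 RPKM, by the Euclidean distance between centred log2(RPKM + 1) values. Rps12, itself a snoRNA host, was the nearest at a distance of 0.0438. It had 74.4 and 49.8 RPKM in B7-H4-null LSCs, against 33.9 and 24.9 RPKM in wild-type LSCs. Next came Calr, a calcium-binding chaperone of the endoplasmic reticulum, at 0.180, the histone gene H3f3b at 0.204, Atf4 at 0.215 and the choline dehydrogenase gene Chdh at 0.244. The 7 host genes themselves lay at 0.300 (Snhg8) to 0.977 (Snhg6) from their mean pattern. With 4 libraries, such likeness is a description of these samples.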

How the data were processed

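The authors deposited 1 table of RPKM values, with 1 library per column and 27179 Entrez gene IDs as rows. The unit was read from the values, whose low levels are whole multiples of a step per gene. Per the labels' protocols, libraries were made with TruSeq RNA v2 and read on a HiSeq2500. TopHat2 2.0.12 and the build GRCm38 come from the submitters' processing notes, and no source at hand names the counter, its annotation or its strand setting. Steps between values gave library totals and reads, with all 14608 genes above 0 in every library whole within 0.001.

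Genes that reached 1 RPKM in 2 or more of the 4 libraries were tested with limma 3.58.1 (R 4.3.3) on log2(RPKM + 1), with a mean-variance trend and genotype as the only term, two-sided, at an adjusted p of 0.05. Differences on this scale understate those of low genes. With 2 samples per genotype the smallest p of an exact permutation test is 0.33, so none was used. On simulated reads the test called 0 of 335 genes changed 2-fold, 15.5% of those changed 4-fold and 49.7% of those changed 8-fold. The changed genes were drawn from all tested genes with a wild-type mean above 1 RPKM. Rates for genes as abundant as the hosts were not measured. A count of 0 called therefore does not show that levels were alike.

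The members and gene lists were chosen with earlier results of these data known. Of each related list, up to 5 tested genes with the smallest p are named, and further names were chosen after their values were seen. Some genes that this rule takes are not reported here. Names and positions come from RefSeq (GRCm38.p6), which gave a symbol for 25275 IDs. Alternatives were a pseudocount of 0.1, a filter at 5 RPKM or none, median-ratio scaling, quantile normalization, no trend, voom on the recovered reads, a replicate block and leaving out each library.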

Additional observations from a re-analysis of the deposited data

How the results depend on the processing

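Under all 12 alternatives the 7 host genes kept a log2 difference above 0 (0.24 to 1.97) and 0 were called by limma, with the smallest adjusted p at 0.0784. At an unadjusted p under 0.05 the number of host genes was 5 with voom, 3 without a filter on low values and 0 to 5 when a library was left out. Their median, 1.17, ranged from 0.61 to 1.56 when each library was left out. Over all genes, 5 were called higher and 7 lower. Without a filter on low values these counts were 0 and 0, beside 799 and 1088 with an unadjusted p under 0.05. With voom they were 10 and 12. Leaving out each library gave 0 to 36 called higher and 0 to 20 called lower. Both were 0 without B7-H4-null replicate 1 (489 and 448 with an unadjusted p under 0.05) and without B7-H4-null replicate 2 (619 and 857). The cause was not tested. Median-ratio scaling moved the median of all genes by 0.09 and left all 7 host genes higher without overlap, beside 22.0% of all tested genes. Quantile normalization left 6, beside 19.1%.

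With a replicate block, 12 genes were called higher and 9 lower, 0 of them host genes. Neither the labels nor the data settle whether the replicate numbers pair the samples, with a correlation between the replicate differences of the genotypes of 0.247 over 12107 genes. The reads of each host gene numbered at least 290 per library, and those of the hosted snoRNAs 5 to 287, where depth limits the comparison.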
